A study of Mus musculus with 4 samples.

Results

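The glutamatergic identity genes were read from bulk RNA-seq of mouse ES cell-derived neurons as a measure of off-target fate in lines built to make GABAergic neurons of the medial ganglionic eminence (MGE). The 10 genes were taken by symbol from a list. They are the vesicular glutamate transporters Slc17a6, Slc17a7 and Slc17a8 and the excitatory lineage factors Tbr1, Neurod1, Neurod2, Neurod6, Neurog2, Eomes and Fezf2. All 10 were among the 34968 gene symbols shared by the libraries. The N/D line carries a Nestin-driven Nkx2-1 transgene that also encodes a tetracycline transactivator, together with Dlx2 under its responsive promoter. In the N/D/S line the responsive transgene holds both Dlx2 and St18. Both lines are clones of a single parental ES cell line (Dlx6-Cre; Ai9 in the labels and Dlx6a-Cre; Ai9 in the methods, strain C57/BL6), in which any cell with a history of this Cre is labelled with tdTomato. In both, embryoid bodies were treated with the Wnt inhibitor XAV-939 and the hedgehog agonist SAG, and tdTomato+ cells were sorted on day 12. Each line gave 2 libraries, numbered replicate 1 and replicate 2. The sources used here do not say whether these were separate differentiations, so the spread between them may be technical.

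Glutamatergic neurons load glutamate into synaptic vesicles with a transporter of the Slc17 family, and GABAergic neurons load GABA with Slc32a1. In the developing cortex, excitatory neurons arise from pallial progenitors that express Neurog2, pass through an Eomes+ intermediate progenitor stage and then express Neurod factors and Tbr1. GABAergic neurons arise from subpallial progenitors under Dlx factors. Slc17a7 predominates in the mature cortex and hippocampus. Slc17a6 predominates in the diencephalon, brainstem and spinal cord, and Slc17a8 is found in scattered populations that include cholinergic, serotonergic and some GABAergic neurons.

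Slc17a6 had the highest mean of the 10 genes over the 4 libraries, although Neurog2 was above it in both replicate 2 libraries. It lies on the plus strand of chromosome 7 of GRCm38, from 51622006 to 51671119 in GENCODE M21, with 4 annotated transcripts. RefSeq gives it 2 start sites, and since the deposited value is one per gene symbol, which start was used cannot be read from it. The 250 bases before each start are shown because the transporter results turn mostly on this gene. Capitals mark E-boxes (CANNTG, a palindrome, so both strands are read at once), the motif bound by Neurod and Neurog2 proteins with their partners.
Slc17a6, chr7:51621580-51621829, plus strand: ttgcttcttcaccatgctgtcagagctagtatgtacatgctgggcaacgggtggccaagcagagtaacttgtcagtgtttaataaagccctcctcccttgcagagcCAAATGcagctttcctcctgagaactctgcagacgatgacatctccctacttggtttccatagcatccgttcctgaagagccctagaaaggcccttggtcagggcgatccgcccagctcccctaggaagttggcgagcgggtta
Slc17a6, chr7:51624387-51624636, plus strand: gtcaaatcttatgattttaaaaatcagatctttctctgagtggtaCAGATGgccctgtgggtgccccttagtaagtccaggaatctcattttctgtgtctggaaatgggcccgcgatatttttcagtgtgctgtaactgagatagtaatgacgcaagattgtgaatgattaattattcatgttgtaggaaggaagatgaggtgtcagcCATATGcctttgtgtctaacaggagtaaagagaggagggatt
The upstream window held 1 E-box and the downstream window 2, one of which was CAGATG. An E-box was present in 66.2% of 32851 such windows over all genes, and CAGATG, read on both strands, in 14.4%. Over the 10 genes, 9 of 12 windows held an E-box and 3 held CAGATG. These are matches of letters, and the data hold no measure of binding.

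Values are TPM, a relative abundance normalised to transcript length, so levels can be compared between genes. Few of the genes were well expressed. Of the 40 values (10 genes in 4 libraries), 9 were listed at 0, 21 were above 0 but under 1 TPM, 10 were at least 1 TPM and 4 were at least 5 TPM. Tbr1, Slc17a7, Neurod2, Eomes and Fezf2 were under 1 TPM in every library. The 10 genes summed to 17.4 TPM in N/D replicate 1, 12.7 TPM in N/D replicate 2, 31.4 TPM in N/D/S replicate 1 and 5.20 TPM in N/D/S replicate 2. For comparison, 8 GABAergic identity genes (Slc32a1, Gad1, Gad2, Dlx1, Dlx2, Dlx5, Dlx6 and Lhx6) summed to between 572 and 1361 TPM. The glutamatergic sum was 2.88%, 1.12%, 2.31% and 0.909% of the GABAergic sum in the same order of libraries. All 8 GABAergic genes and all 10 pan-neuronal markers, among them Tubb3 and Stmn2, had at least 1 TPM in every library.

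**Figure D1:**
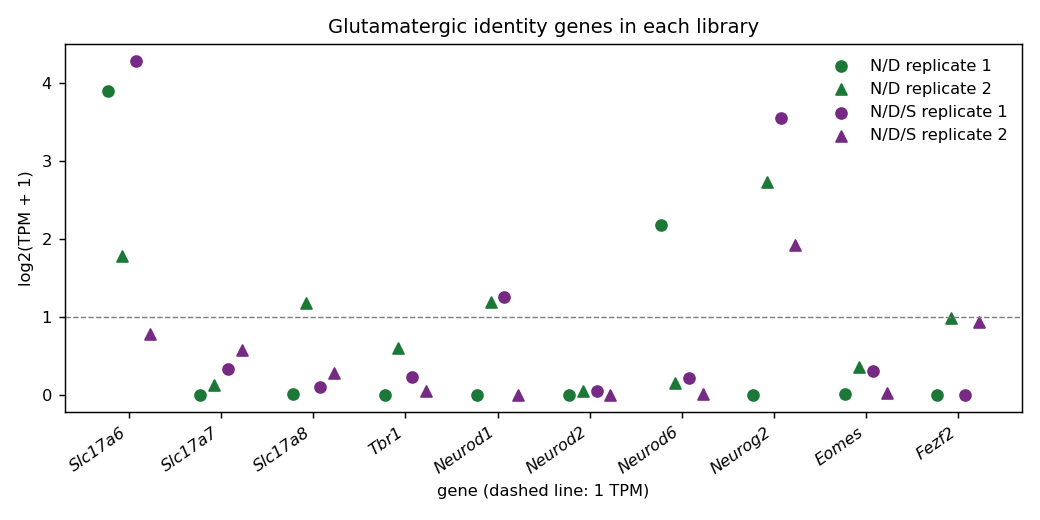
Level of each glutamatergic identity gene as log2(TPM + 1) in the 4 libraries, with colour for the line and shape for the replicate number; the dashed line is 1 TPM. Slc17a6 and Neurog2 hold the values of at least 5 TPM, and Tbr1, Slc17a7, Neurod2, Eomes and Fezf2 stay under the line in every library.

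A library of the N/D line stood apart. N/D replicate 1 had 13426 genes above 0, against 17118 to 20750 in the others, and of the 6139 genes that reached 10 TPM in each other library, 613 were listed at 0 in it, against 0 to 2 such genes in the others. It listed 6 of the 10 glutamatergic genes at 0 (Slc17a7, Tbr1, Neurod1, Neurod2, Neurog2 and Fezf2). Among genes within a factor of 2 of the mean level of Neurog2 in the other libraries, 40.4% were listed at 0 there, and 62.1% for the level of Neurod1. A value of 0 in that library is therefore given only as listed. The induced factor St18 did not separate the lines, at 28.5 and 26.6 TPM in the N/D libraries against 44.4 and 15.9 TPM in those of N/D/S, so its TPM gave no check of the labels.

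Among the transporters, Slc17a6 had 13.8 TPM in N/D replicate 1, 2.44 TPM in N/D replicate 2, 18.4 TPM in N/D/S replicate 1 and 0.727 TPM in N/D/S replicate 2. The high and low libraries were split within each line, so the lines overlapped. Slc17a6 ranked 5594 and 6702 among all symbols in replicate 1 of N/D and of N/D/S, and 11519 and 12405 in their replicate 2 libraries. Within N/D the replicate 1 library was 5.65-fold above replicate 2, and within N/D/S it was 25.3-fold above. Slc17a8 was at 0.0127 and 1.26 TPM in N/D and at 0.0724 and 0.216 TPM in N/D/S, in replicate order, so that only N/D replicate 2 passed 1 TPM. Of its stretches of 31 bases, the default word length of kallisto, 3.17% also occur in transcripts of other genes. Slc17a7 was listed at 0 and had 0.0973 TPM in N/D, and reached 0.256 and 0.494 TPM in N/D/S. It was the only one of the 10 with both N/D/S libraries above both N/D libraries, a pattern seen in 7.51% of the 23608 genes above 0 in any library, with the opposite pattern in 6.54%. At these levels, and with a 0 in the library that lists many expressed genes at 0, no difference in Slc17a7 was shown.

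Slc17a6 made up most of the transporter sum where that sum was high, at 99.9% in N/D replicate 1 and 98.2% in N/D/S replicate 1. It was 64.2% of a sum of 3.81 TPM in N/D replicate 2 and 50.6% of 1.44 TPM in N/D/S replicate 2. The GABA transporter Slc32a1 had 1.55 and 13.9 TPM in N/D and 11.9 and 10.9 TPM in N/D/S. The share of the 3 glutamate transporters in their sum with Slc32a1, a ratio within a library that does not depend on scaling between libraries, was 89.9% and 21.5% in N/D and 61.2% and 11.7% in N/D/S. The mean share in N/D/S was 19.3 percentage points below that in N/D (36.4% against 55.7%), smaller than the standard deviation within the lines, 42.2 points. Without N/D replicate 1 the share was instead 14.9 points above, and without N/D/S replicate 2 it was 5.47 points above. With the GABA-synthesising enzymes Gad1 and Gad2 in place of Slc32a1, the share was 7.60% and 2.05% in N/D and 7.85% and 1.91% in N/D/S, and the means differed by 0.0512 points. The libraries kept the same split under this second measure, with both replicate 1 libraries high, but its numerator is that of the first. Of the stretches of 31 bases in Slc32a1, 24.2% also occur in the transcript of Gm14205 on the opposite strand, and whether the reads were assigned by strand is not given in the sources used here.

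**Figure D2:**
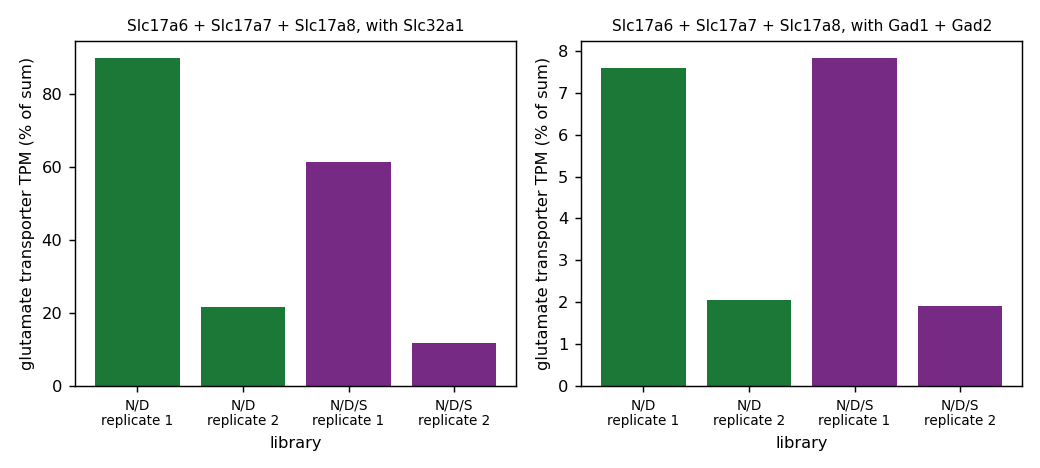
TPM of Slc17a6, Slc17a7 and Slc17a8 as a percentage of their sum with Slc32a1 (left) or with Gad1 and Gad2 (right), 1 bar per library, on different scales; green is N/D and purple N/D/S. Left, the bars stand at 89.9%, 21.5%, 61.2% and 11.7%, and right, at 7.60%, 2.05%, 7.85% and 1.91%.

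Of the progenitor-stage factors, Neurog2, the proneural factor of pallial and other excitatory progenitors, was the clearest. It had 10.7 TPM in N/D/S replicate 1, 5.64 TPM in N/D replicate 2 and 2.79 TPM in N/D/S replicate 2, while N/D replicate 1 listed it at 0. The N/D/S libraries lay on either side of N/D replicate 2. Eomes, the marker of intermediate progenitors, had 0.00584 and 0.283 TPM in the N/D libraries and 0.237 and 0.0147 TPM in those of N/D/S, in replicate order. It shares 2.59% of its stretches of 31 bases with other genes, mostly Gm33460 on the opposite strand.

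Of the neuronal factors, none had a mean over the libraries above that of Neurog2. Neurod1, which follows Neurog genes in excitatory neurons and also acts in the pancreas and inner ear, had 1.40 TPM in N/D/S replicate 1 and 1.28 TPM in N/D replicate 2, and was listed at 0 in the other library of each line. Its locus shares exons with Cerkl, a gene at 0.763 TPM or less in these libraries, and 11.2% of its stretches of 31 bases are found in other genes. Neurod2, a factor of maturing cortical neurons, reached 0.0387 TPM at most. Neurod6, a marker of postmitotic pallial neurons, had 3.53 TPM in N/D replicate 1 and 0.159 TPM or less in the others. That value came from the library with the fewest genes above 0. Tbr1, which marks early-born cortical neurons of the deep layers, was listed at 0 and had 0.520 TPM in N/D, and reached 0.176 and 0.0352 TPM in N/D/S. Fezf2, the selector of subcerebral projection neurons and also a forebrain progenitor gene, had 0.982 TPM in N/D replicate 2 and 0.912 TPM in N/D/S replicate 2, with a listed 0 in both replicate 1 libraries.

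The lines were compared by limma, on the log2(TPM + 1) scale, over 12975 genes that reached 1 TPM in 2 or more libraries, a filter that Slc17a6, Neurog2 and Neurod1 passed and the other 7 genes did not. None of the 3 was called at an adjusted p under 0.05 (limma with Benjamini-Hochberg adjustment), and 0 of the 12975 genes, or 0%, were called. Over all genes, 8 had an unadjusted p under 0.05 by limma. Slc17a6 had a log2 difference of N/D/S minus N/D of −0.30 (standard error 1.45, 95% interval −3.72 to 3.12, adjusted p = 1 from limma). Neurog2 had 1.37 (standard error 1.28, interval −1.65 to 4.38, adjusted p = 1 from limma), where the median over all tested genes was 0.26. Neurod1 had 0.03 (standard error 1.06, interval −2.47 to 2.54, adjusted p = 1 from limma). The intervals are wide enough to hold several-fold changes in either direction. Without N/D replicate 1, the difference in Neurog2 was 0.00, that in Slc17a6 was 0.75 and that in Neurod1 was −0.56. Without N/D/S replicate 2 that in Slc17a6 was 1.44, and without N/D/S replicate 1 that in Neurod1 was −0.60. Without N/D replicate 2, which leaves N/D replicate 1 as the only N/D library, 2373 genes were called over the whole table, 2213 of them higher in N/D/S, but none of the 3, with Neurog2 nearest at 2.73 (unadjusted p = 0.0173 and adjusted p = 0.0793 from limma). Within the same replicate number, N/D/S minus N/D on the log2 scale was 0.39 in replicate 1 and −0.996 in replicate 2 for Slc17a6. For Neurog2 it was 3.54, taken against a value listed at 0, and −0.81. None of the 3 had both libraries of a line above both of the other, which 8.69% of tested genes showed with N/D/S higher and 8.23% with N/D higher.

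**Figure D3:**
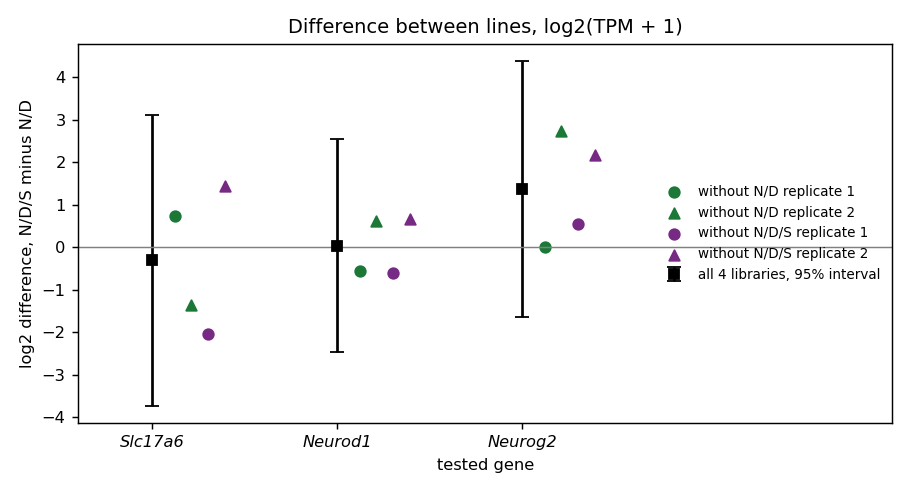
Log2 difference of N/D/S minus N/D on the log2(TPM + 1) scale for the 3 tested genes; squares are the fit to all 4 libraries with its 95% interval, and coloured points the same fit without the library named. All 3 intervals include 0, and the points for Slc17a6 range from −2.05 to 1.44.

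The split seen in Slc17a6, both replicate 1 libraries above both replicate 2 libraries, was looked for in other genes after it was seen. Because the filter on low values can keep a gene for its high libraries, the split was counted over all listed genes, filtered or not. It occurred in 13.3% of the 23608 genes above 0 in any library, and the opposite split in 12.8%. Of the 10 glutamatergic genes, Slc17a6 and Neurod6 had it, and Fezf2 and Slc17a8 had the opposite. Neurog2, Neurod1, Neurod2, Tbr1 and Eomes had neither, and were higher in N/D replicate 2 and N/D/S replicate 1 than in the other libraries. The GABAergic genes summed above, apart from Gad2, were also higher in those libraries. The share of all genes with that order was not counted. Of 13 markers of glutamatergic lineages outside the pallium, 3 (Lhx5, Nhlh2 and Otp) had the split of Slc17a6 and 0 the opposite, and of the 7 tested 0 were called between the lines. Nhlh2, a factor of hypothalamic and other early neurons, had 28.1 and 4.36 TPM for N/D and 23.9 and 0.972 TPM for N/D/S. Lhx5, a factor of the diencephalon and of Cajal-Retzius cells, had 45.0 and 5.59 TPM for N/D and 36.05 and 7.78 TPM for N/D/S. Otp, required for hypothalamic neuroendocrine neurons, had 5.76 and 0.395 TPM for N/D and 9.32 and 0.0358 TPM for N/D/S. All are in replicate order, and the replicate 1 libraries of both lines were the high ones for these genes. Lmx1a was instead highest in N/D replicate 2, with a listed 0 and 10.4 TPM for N/D and 1.63 and 1.04 TPM for N/D/S. Lmx1b, with the largest log2 difference of the list, had 4.30 and 2.35 TPM for N/D and 1.13 and 0.259 TPM for N/D/S. Both its N/D libraries were above both of N/D/S, as in 8.23% of tested genes. Of 7 Cajal-Retzius markers, Calb2, Ebf3 and Nhlh2 had the split of Slc17a6 and Reln had the opposite. Reln had 0.334 and 5.11 TPM in N/D and 2.18 and 3.51 TPM in N/D/S. Ebf3 had 56.1 and 1.35 TPM in N/D and 5.99 TPM and 0 in N/D/S. Trp73, a defining marker of Cajal-Retzius cells, was listed at 0 in 3 libraries and had 0.0129 TPM in the other.

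Of 18 other pallial excitatory genes, 5 had the split of Slc17a6 and 1 had the opposite, and of the 15 tested 0 were called between the lines. The list is not specific to excitatory neurons, since it holds Mef2c, which the paper takes as a marker of nascent cortical interneurons. The highest by mean was Cux1, at 89.5 and 68.9 TPM for N/D and 83.4 and 32.6 TPM for N/D/S, a homeobox gene of upper-layer neurons that other cells also express. Neurog1, related to Neurog2, had 20.04 and 0.553 TPM in N/D and 1.88 TPM and 0 in N/D/S. Its log2 difference of −1.75 (standard error 1.44), the largest of the list, rested on N/D replicate 1. It was 0.13 without that library and −3.63 without N/D replicate 2, a fit that leaves N/D replicate 1 as the only N/D library. Emx1, which marks the pallium, was listed at 0 in all 4 libraries, and Emx2 reached 0.125 TPM at most. Of 12 genes of glutamate synthesis and uptake, which neurons of other transmitters and glia also use, all 12 were tested, 0 were called, 4 had the split of Slc17a6 and 2 the opposite. The highest was the mitochondrial aminotransferase Got2, at 249 to 361 TPM.

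Markers of other cells were present although the cells were sorted as tdTomato+. All 5 listed pluripotency markers and 8 of the 10 listed glial markers were higher in both replicate 2 libraries than in both replicate 1 libraries, while 0 of either list had the split of Slc17a6. In N/D replicate 1, 4 of the 5 and 9 of the 10 were listed at 0. The pluripotency list summed to 185 and 291 TPM in N/D replicate 2 and N/D/S replicate 2, against 0.247 and 3.50 TPM in their replicate 1 libraries. The stem-cell gene Dppa5a was most of it, at 164 and 266 TPM against a value listed at 0 and 3.03 TPM, and Pou5f1, a defining factor of pluripotent cells, had 7.55 and 19.5 TPM against a value listed at 0 and 0.0881 TPM. The glial list summed to 221 and 87.7 TPM against 5.31 and 19.8 TPM. Its highest gene by mean, the myelin gene Mbp, had 81.1 and 19.8 TPM against a value listed at 0 and 10.96 TPM. Pan-neuronal markers did not show that order, since 4 of the 10 had the split of Slc17a6 and 0 the opposite. Of 8 neural progenitor markers, 2 had the split of Slc17a6 and 1 the opposite, and of 8 vascular, blood and muscle markers 0 and 3. None of the tested genes of these lists was called between the lines. In bulk libraries, fewer glutamatergic cells and less transcript per cell cannot be told apart, and the part of the other cell types in the Slc17a6 values was not tested.

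**Figure D4:**
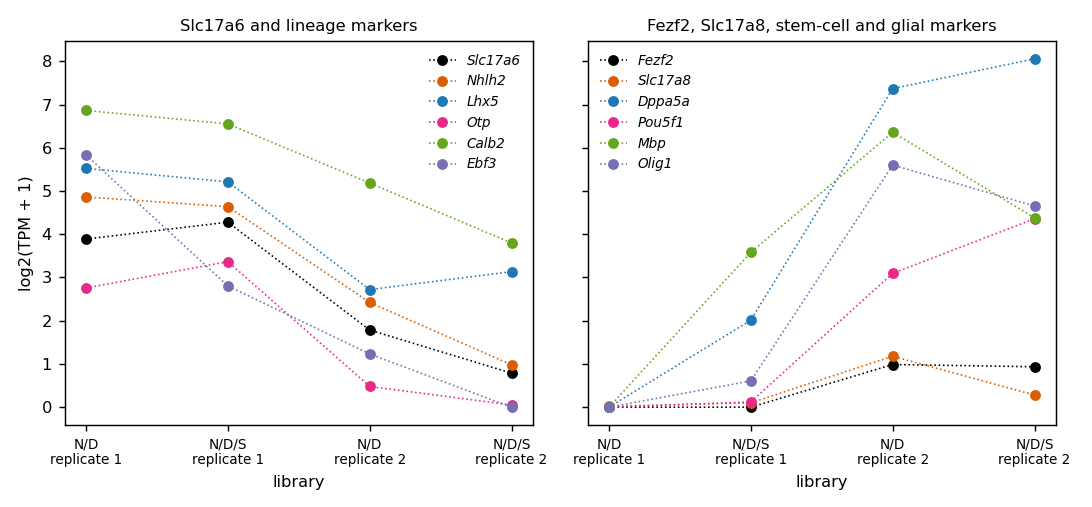
Log2(TPM + 1) in each library, ordered here by replicate number, for Slc17a6 with 5 lineage markers (left) and for Fezf2 and Slc17a8 with 4 stem-cell and glial markers (right); dotted lines join the points of a gene. Apart from the glutamatergic genes, those plotted were picked from their lists because they had the split. The genes on the left are higher in both replicate 1 libraries, Slc17a6 by at least 5.65-fold, and those on the right in both replicate 2 libraries.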

How the data were processed

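RNA was poly-A selected and sequenced as paired-end reads. Per the methods and the submitters' processing notes, the authors pseudoaligned them with kallisto 0.44.0 to a mouse transcriptome of GRCm38, whose release is not given in the sources used here. The authors deposited TPM per gene symbol, 1 file per library, with no scaling between libraries stated. TPM keeps no read total, so depth is unknown and no interval from counts is given, and how far depth limits detection was not assessed. The 26 rows per file whose symbols had become dates were left out, and 34968 shared symbols were kept.

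Lines and replicate numbers came from the labels. Genes that reached 1 TPM in 2 or more libraries were fitted with limma 3.58.1 in R 4.3.3 on log2(TPM + 1), 2 libraries against 2, with Benjamini-Hochberg adjustment over all 12975 genes and a threshold of 0.05. A fold change on this scale understates that of low genes. With 2 against 2, the smallest p of a two-sided exact permutation test is 0.333, so none was used. Sleuth, which the study used, was not run, since it needs kallisto output that was not used here. Positions and stretches of 31 bases came from GENCODE M21 (GRCm38), and promoters of all 10 genes from RefSeq (GRCm38.p6). Figures were made with matplotlib 3.10.9.

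The members and lists were chosen with earlier results of these data known, and 2 genes of the planned GABAergic list are not reported here. All members are named, and from each other list at most the 4 genes of highest mean TPM and the one with the largest log2 difference. In addition, the GABAergic list was spelled out where it was summed, and Gad1 and Gad2 stood in a planned ratio. Emx1, Emx2, Trp73, Reln, Mef2c and genes overlapping members were named after their values were seen. Alternatives were other pseudocounts, filters and scalings, a natural log, a variance trend, replicate number as a block, other transporter shares, and each library left out in turn.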

Additional observations from a re-analysis of the deposited data

How the results depend on the processing

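The 9 results were recomputed under the alternatives, giving 89 values, of which 7 log2 differences changed sign, 2 newly passed the threshold and 6 counts moved. The difference in transporter share changed sign in 3 more, each by less than the spread within lines of the share with Slc32a1, 42.2 points. One of them was the share with Gad1 and Gad2, which had its own spread of 4.06 points. For these the cause was not tested, apart from what each construction fixes. The number of genes called was 0 in all alternatives except the variance trend, with 6, and with one library left out, where it ranged from 0 to 2373, the highest without N/D replicate 2. That fit has a lone N/D library, assumed to vary like the others. The number of the 10 genes called was 0 in every alternative that tested any. With at least 1 TPM in every library, none of them was tested. The number not overlapping between the lines was 1 of 10 with no filter (Slc17a7) and from 0 to 3 of the 3 tested with one library left out. Such a line of 1 library overlaps less, and 45.2% to 79.7% of all tested genes then did not overlap (56.4% without N/D/S replicate 2, where the 3 were found). The log2 difference of Slc17a6 ranged from −2.05 to 1.44 and that of Neurod1 from −0.60 to 0.67 with one library left out, and Neurod1 was −0.0036 with the upper quartile. With one library left out, a choice made for these after seeing the data, Neurog1 ranged from −3.63 to 0.13 and Ddc from −0.085 to 5.21, both called without N/D replicate 2. Neurog2 stayed above 0, from 0.00 without N/D replicate 1 to 2.88 with a pseudocount of 0.1. The difference in transporter share ranged from −53.5 to 14.9 points with one library left out, and was 0.0512 points with Gad1 and Gad2.

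Deviations of same-numbered libraries from their line means correlated at 0.0197 over the tested genes, with 2 pairs, so the numbers were not taken to pair the libraries. Both replicate 1 libraries came with 35197 symbols and both replicate 2 libraries with 35204, so the number also went with a difference in the deposited data. Its part in the splits by replicate number was not tested. With replicate number as a block (replicate block), 0 genes were called, and the difference in Slc17a6 was −0.30 with a standard error of 1.29. Depth is unknown, so values under 1 TPM were given no detection limit.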

Other observations

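Genes of other transmitters were measured in the same sorted cells. Of 10 such markers 7 were tested and 0 were called between the lines. Over all 10, 1 was higher in both replicate 1 libraries, as Slc17a6 was, and 3 were higher in both replicate 2 libraries. Th, the rate-limiting enzyme of catecholamine synthesis, was the highest, at 204 and 72.9 TPM in N/D and 396 and 62.1 TPM in N/D/S in replicate order, and was the one with the split of Slc17a6. Ddc, which acts after Th and in serotonin synthesis, had 0.871 and 72.3 TPM in N/D and 134 and 34.5 TPM in N/D/S, with a log2 difference of 2.56 (standard error 1.78), the largest of the list. It rested on N/D replicate 1, and was −0.085 without that library. It was 5.21 without N/D replicate 2, a fit that leaves N/D replicate 1 as the only N/D library. The serotonin transporter Slc6a4 had 13.8 and 6.82 TPM in replicate 2 of N/D and of N/D/S, against a value listed at 0 and 1.04 TPM in replicate 1, the order that Slc17a8 also had. The dopamine transporter Slc6a3 and the acetylcholine-synthesising enzyme Chat had at most 0.00679 and 0.361 TPM, and were named after their values were seen.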
